A study of Mus musculus with 26 samples.

Results

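Small nucleolar RNAs (snoRNAs) and small Cajal body RNAs (scaRNAs) were described in bulk total RNA from mouse motor neuron spheroids. The genes were the rows of the deposited count table whose symbol was Snora, Snord or Scarna followed by a number and at most 1 letter. The rule found 139 of 56941 genes, of which 42 were of the box H/ACA class, 87 of the box C/D class and 10 of the Cajal body class. Scarna10 was set beside the others, chosen by its measured counts: an earlier fit of these libraries had placed it lower in low intensity medium than in control. Its values are therefore given as a description, with no test, and it is left out of every count of genes that passed a test.

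Box C/D snoRNAs base-pair with ribosomal RNA and guide 2′-O-methylation by fibrillarin, and box H/ACA snoRNAs guide pseudouridylation by dyskerin. ScaRNAs carry the same boxes and act on spliceosomal small nuclear RNAs in Cajal bodies. In mammals most of these RNAs are cut out of introns of host genes, many of which encode ribosomal proteins. A few, such as U17 (Snora73a and Snora73b) and U3 (Snord3a), act in the cleavage of the ribosomal RNA precursor instead of its modification.

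All spheroids were made from mouse embryonic stem cells of the line HBG3, which carries HB9::GFP, a reporter of motor neurons, with the genotype given as heterozygous blastocysts. They were differentiated with retinoic acid and purmorphamine to about day 8 and plated on fibrin. Of 26 libraries, 4 came from a magnetic silicone array actuated at 4 Hz for 30 min daily, 4 from such an array that was never actuated (the static array), 6 each from medium labelled high or low intensity, and 6 from biochemical controls. The design text describes medium from optogenetic muscle that was or was not stimulated, under other sample names, so the medium groups are named by intensity alone. Feeder cells were used to expand the line. The labels do not say that replicates were separate cultures, so p-values measure the spread between these samples, which may be technical.

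The libraries held between 1536 and 13162635 counts. The 21 with more than 1000000 counts on protein-coding genes are called the deeper libraries, and 5 were shallower: control 4, low intensity 6, high intensity 4, high intensity 5 and static array 3. Control 4 also had 75.7% of its counts on ribosomal RNA genes. Markers of motor neurons (8 of 8 genes in the table) summed to between 357 and 801 CPM in the deeper libraries, and pan-neuronal markers (5 of 5) to between 1924 and 3260 CPM. Fibroblast or feeder cell markers (7 of 7) summed to between 189 and 2630 CPM. They stood at 913 to 2436 CPM in high intensity medium and 331 to 793 CPM in the controls. Their part in any difference between these groups was not tested.

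The sequences below are those of the snoRNAs that the results turn on and of the box H/ACA RNAs with the highest mean CPM (counts per 1000000 counts of the library) in the deeper libraries, from GENCODE M21 transcripts (build GRCm38) matched by gene identifier, which was possible for 118 of the 139 genes. The first set shows box C/D RNAs, with capitals for the first TGATGA match in the first 20 bases (box C) and the last CTGA match in the last 20 bases (box D), searched on the transcript strand only.
Snord15b: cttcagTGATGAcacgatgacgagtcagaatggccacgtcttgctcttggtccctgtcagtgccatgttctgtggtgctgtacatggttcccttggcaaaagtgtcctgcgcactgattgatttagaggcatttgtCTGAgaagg
Snord15a: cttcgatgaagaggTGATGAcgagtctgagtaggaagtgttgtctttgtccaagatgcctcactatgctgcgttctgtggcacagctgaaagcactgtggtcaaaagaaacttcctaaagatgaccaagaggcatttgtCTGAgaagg
Snord21: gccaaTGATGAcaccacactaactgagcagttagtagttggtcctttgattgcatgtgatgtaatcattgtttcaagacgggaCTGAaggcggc

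Scarna10 (U85) is a composite guide for U5 small nuclear RNA that holds both kinds of domain. Its first and last 60 bases of 325 are shown for the same boxes at its ends.
Scarna10 5 prime end: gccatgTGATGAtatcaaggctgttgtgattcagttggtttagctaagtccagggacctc
Scarna10 3 prime end: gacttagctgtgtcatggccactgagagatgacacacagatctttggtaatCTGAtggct

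Of the box H/ACA class, Snora7a and both copies of U17 are shown, with capitals for the last ACA match in the last 7 bases.
Snora7a: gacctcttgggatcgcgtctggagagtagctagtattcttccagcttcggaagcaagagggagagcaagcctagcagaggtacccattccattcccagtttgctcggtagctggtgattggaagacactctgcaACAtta
Snora73a: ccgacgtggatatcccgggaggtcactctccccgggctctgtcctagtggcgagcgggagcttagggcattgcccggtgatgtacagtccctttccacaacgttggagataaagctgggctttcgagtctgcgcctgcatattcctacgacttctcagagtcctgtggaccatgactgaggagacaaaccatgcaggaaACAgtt
Snora73b: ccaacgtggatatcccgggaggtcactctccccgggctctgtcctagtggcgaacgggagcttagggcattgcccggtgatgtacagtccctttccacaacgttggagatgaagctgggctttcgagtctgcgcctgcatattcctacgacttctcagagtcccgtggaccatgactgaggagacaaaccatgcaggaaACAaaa

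TGATGA was found in 64.9% of 74 matched box C/D genes and in none of 37 box H/ACA genes. CTGA was found in 97.3% of the box C/D genes and in 13.5% of the box H/ACA genes, and ACA in 94.6% of the box H/ACA genes and 6.76% of the box C/D genes. These are matches of letters in a window and not mapped sites. Snord15a and Snord15b were identical at 107 of 162 aligned columns (66.0%), whereas Snora73a and Snora73b were identical at 198 of 205 (96.6%), so counts of the U17 copies are uncertain.

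In GRCm38, Scarna10 lies on the minus strand at chr6:125186359-125186683 in Ncapd2, a condensin subunit gene, where it overlaps an exon of at least 1 annotated Ncapd2 transcript. Snord15b (chr7:99479563-99479707, minus strand) and Snord15a (chr7:99482785-99482932, minus strand) both lie in Rps3, a small-subunit ribosomal protein gene, and Snord15b overlaps an annotated Rps3 exon while Snord15a does not. Snord21 (chr5:107904555-107904648, plus strand) lies in Rpl5, a large-subunit ribosomal protein gene, and overlaps an annotated exon. A host gene on the same strand was found for 108 genes, protein-coding for 83 and a long noncoding RNA for 25, and 30 of the hosts were ribosomal protein genes. Since 52 of the 108 overlap a host exon, reads of the host RNA and of the small RNA cannot be told apart there.

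Few of these genes were well covered. At least 1 count was found for 104 of the 139 genes, and 35 had none in any library. In the deeper libraries they held 18784 counts, of which 51.4% fell on the box C/D class, 45.2% on the Cajal body class and 3.40% on the box H/ACA class. There 4 genes (Scarna10, Snord15b, Scarna13 and Scarna2) held 65.0% of these counts and Scarna10 alone 23.9%. Only 7 genes had a count in every deeper library, 0 had one in all 26, and 6 had one in every deeper library when these were thinned to 1551334 counts each.

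The median annotated length was 78 bases for box C/D genes and 132 for box H/ACA genes. Across genes, length and mean CPM had a Spearman rho of 0.31 over 118 genes, 0.48 within box H/ACA (37 genes) and 0.40 within box C/D (74 genes), with all points from the same 21 libraries. Genes of at least 200 bases, 7 of the 118, held 47.5% of the counts of the matched genes. The library protocol fragments RNA and primes on the fragments, and how far it captures short RNAs was not tested.

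**Figure D1:**
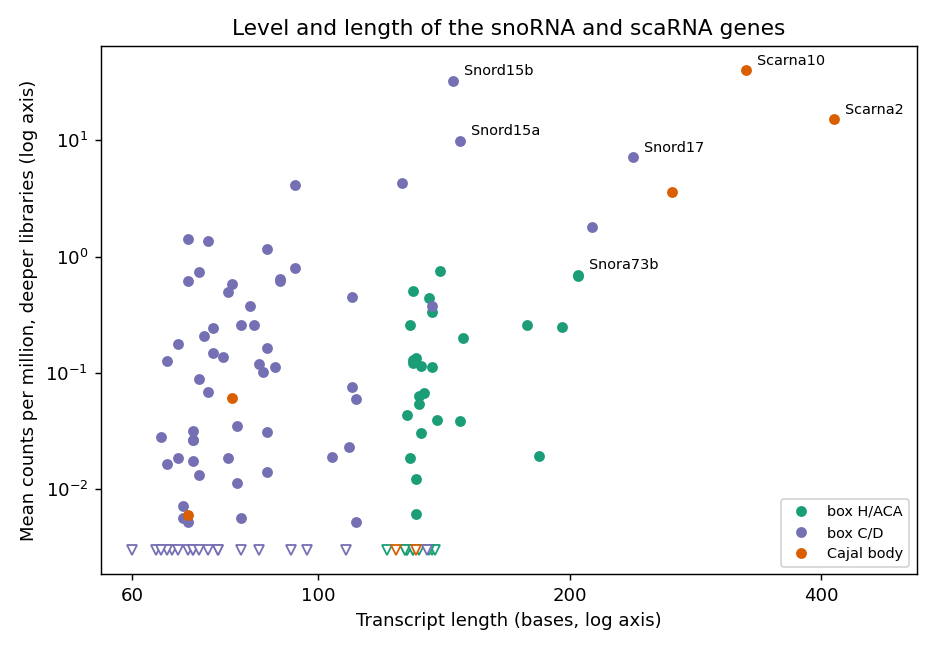
Mean CPM over the 21 deeper libraries (log axis) against annotated length in bases (log axis) for the 118 genes with a GENCODE M21 transcript, coloured by class, with open triangles at the lower edge for genes at 0 in the deeper libraries. Scarna10, Snord15b and Scarna2 lie at the top, and no box H/ACA gene reaches 1 CPM.

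On the scale corrected for length, TPM, Snord15b had the highest mean over the deeper libraries among the genes that passed the filter on low counts, at 1399, followed by Snord15a at 394, Scarna10 at 308 and Scarna13 at 231. Scarna2, an independently transcribed scaRNA, had a mean of 76.7 TPM.

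The box C/D class had its highest group mean on the static array. Its summed level was 50.1, 29.9, 199.95 and 107.8 CPM on the actuated array and 129, 122 and 142 CPM in the deeper static array libraries. It was 71.5, 96.3, 116 and 62.1 CPM in high intensity medium, 78.6, 35.4, 37.3, 80.6 and 37.2 CPM in low intensity medium, and 60.2, 58.3, 30.4, 24.2 and 62.3 CPM in the controls. With Snord15b included, the deeper static array libraries lay above every deeper library of the controls and of both media. The actuated array spanned a wider range than any other group. Snord15b alone made up 54.9 to 75.9 CPM of the static array sums. It made up at most 41.1 CPM in high intensity medium, 38.0 CPM in low intensity medium and 24.3 CPM in the controls. The sum without Snord15b was not compared, so this order is not shown for the other box C/D genes. In bulk RNA, fewer cells of a type and less RNA per cell cannot be told apart.

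The box H/ACA class stayed low in every group. Its deeper libraries lay between 5.25 and 12.004 CPM on the static array, 1.52 and 8.45 CPM on the actuated array, 3.51 and 12.5 CPM in high intensity medium, 0.78 and 5.83 CPM in low intensity medium, and 1.32 and 9.50 CPM in the controls. All 5 ranges overlapped. The Cajal body class without Scarna10 likewise overlapped in all groups, with group means of 41.9 ± 12.2 CPM on the static array (SD, n = 3), 35.9 ± 8.69 on the actuated array (n = 4), 45.3 ± 20.1 in high intensity medium (n = 4), 29.8 ± 6.90 in low intensity medium (n = 5) and 39.3 ± 11.7 in the controls (n = 5).

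**Figure D2:**
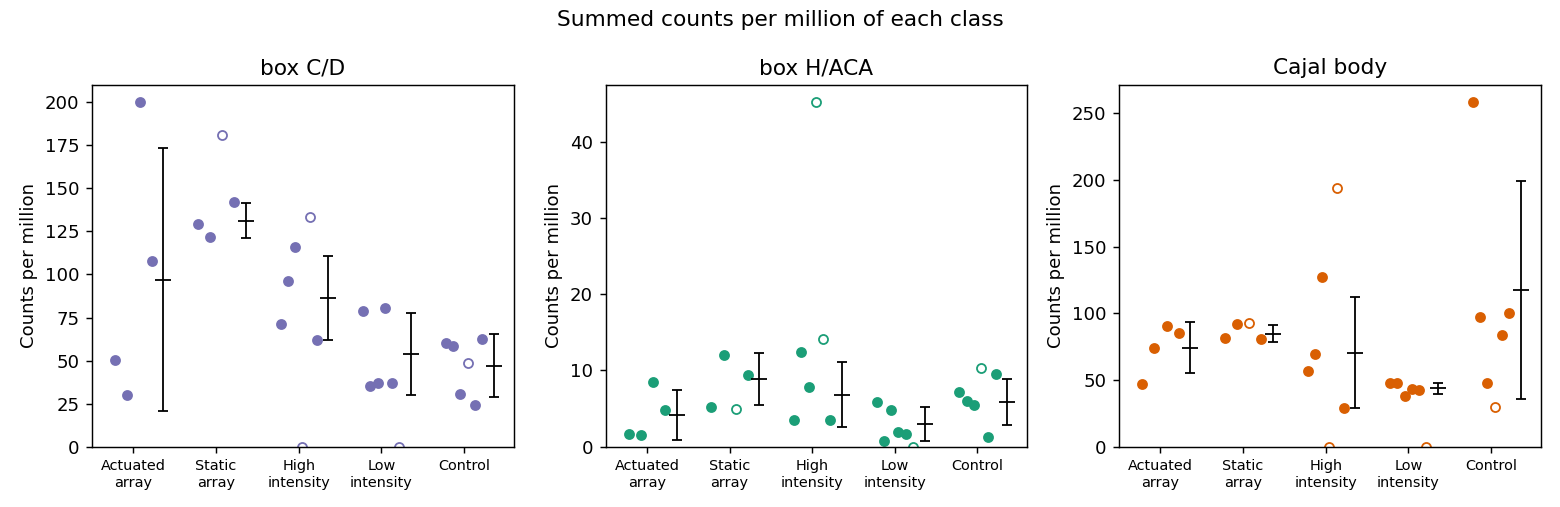
Summed CPM of the box C/D, box H/ACA and Cajal body classes in each library, by group; filled points are deeper libraries, open points shallower ones, and bars give the mean and SD of the deeper libraries. In box C/D, Snord15b included, the 3 deeper static array libraries (122 to 142 CPM) lie above the controls (24.2 to 62.3 CPM). In the Cajal body class control 1 stands at 258 CPM.

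The number of genes with a count also differed, but so did depth. The deeper static array libraries had a count for 57 to 68 genes and the controls for 18 to 39. At 1551334 counts each, the ranges were 33 to 41 and 15 to 27 genes, and they did not overlap. On the actuated array the thinned range was 21 to 43 genes, in high intensity medium 29 to 41 and in low intensity medium 19 to 31. The high intensity range did not overlap that of the controls either. The number of all genes with a count at this depth was not taken, so a difference particular to these genes is not shown.

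Tests for single genes used edgeR's quasi-likelihood test over all 14907 genes that passed the filter, with Benjamini-Hochberg adjustment and a threshold of 0.05. Of the 139 genes, 11 passed the filter with all libraries and 13 with the deeper libraries (14730 genes), Scarna10 among them in both. None of the 42 box H/ACA genes passed, so nothing was tested in that class. Genes that passed had to be present in several libraries, and their counts do not stand for the whole class.

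With all 26 libraries, 0 of the 10 genes tested beside Scarna10 passed the adjusted threshold in each of the 5 comparisons. DESeq2 and limma on log2 TPM gave 0 as well, while DESeq2 called between 7 and 77 of 14907 genes of any kind per comparison. The share of all tested genes that passed in edgeR was 0.0% for actuated versus static array, 0.0402% for high intensity versus control, 0.0268% for low intensity versus control, 0.0% for high versus low intensity and 0.0134% for static array versus control, so that few genes of any kind were called. An unadjusted p under 0.05 was reached by 0, 0, 3, 2 and 2 of the 10 genes in that order, beside 3.86%, 7.04%, 5.23%, 2.91% and 5.27% of all tested genes.

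With the deeper libraries, 1 of 12 genes passed, Snord15b in static array versus control, where 0.713% of all tested genes passed. In the other comparisons 0 of 12 passed, beside 0.0% of all genes for actuated versus static array, 0.462% for high intensity versus control, 0.597% for low intensity versus control and 0.0% for high versus low intensity. An unadjusted p under 0.05 was reached by 1, 3, 2 and 3 of the 12 in those 4 comparisons, beside 0.380%, 15.9%, 15.2% and 7.68% of all tested genes. In static array versus control such a p was reached by 3 of the 12, beside 12.6% of all tested genes. The gene in actuated versus static array was the second Snord3a row. It had 119 and 25 counts in actuated array 3 and 4 and 0 on the static array. In static array versus control the 3 were Snord15b, Snord33 and that Snord3a row, which had 15 counts in control 2 alone. Libraries where they were high helped Snord33 and the Snord3a row pass the filter. Their part in these counts is therefore no independent sign of a difference. The median log2 difference of the 12 was 0.56 in static array versus control, beside −0.003 over all tested genes. In low intensity versus control it was −0.61, beside −0.01. In high versus low intensity the median was 0.78, beside 0.01, with 11 of the 12 positive. In high intensity versus control it was 0.34, beside 0.003, and in actuated versus static array −0.31, beside −0.0004. Some of the 12 passed the filter through libraries where they were high, so these medians do not show a shift of the class.

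**Figure D3:**
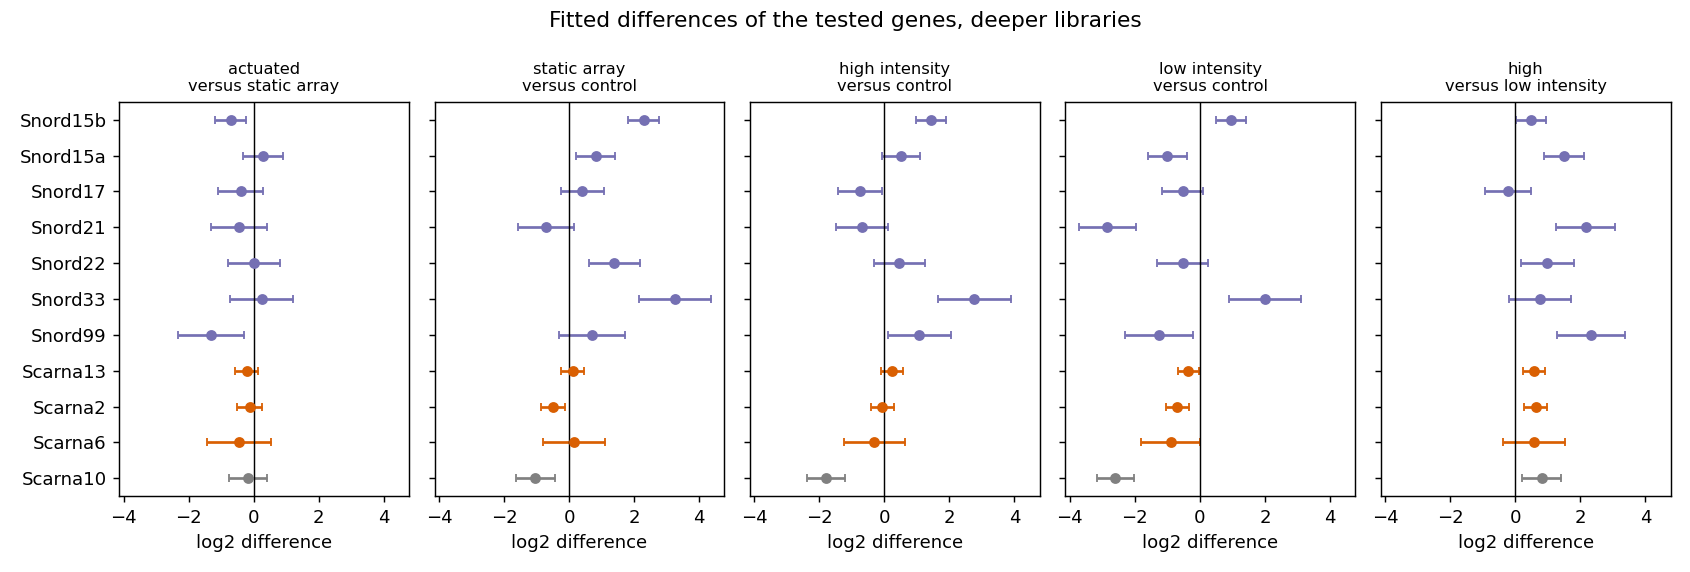
Fitted log2 differences (points) with their standard errors (bars) in the deeper libraries for 11 of the 13 genes that passed the filter, box C/D in purple, Cajal body in orange and Scarna10, which has no test, in grey; both Snord3a rows are left out because the gene has several copies. Snord15b stands at 2.30 in static array versus control, the one difference that passed the adjusted threshold.

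Snord15b, a box C/D snoRNA of the ribosomal RNA guides, was the box C/D gene with the most counts. It stood at 67.8, 54.9 and 75.9 CPM in the deeper static array libraries and at 68.5 CPM in the shallow one. The controls were at 14.6, 5.95, 1.71, 12.3 and 24.3 CPM in the deeper libraries and 15.8 CPM in control 4. Every static array library lay above every control library.

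The actuated array held 22.7, 14.2, 70.6 and 51.7 CPM of Snord15b. High intensity medium held 27.4, 41.1, 41.1 and 30.7 CPM in the deeper libraries and 38.4 and 0 CPM in the shallow ones, and low intensity medium held 38.0, 20.3, 23.3, 34.8 and 10.3 CPM, with 0 in the shallow library. The deeper high intensity libraries also lay above every deeper control, whereas the low intensity and actuated ranges overlapped the controls.

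In the deeper libraries Snord15b rose by 2.30 ± 0.48 (SE) on the log2 scale in static array versus control (edgeR adjusted p = 0.0216). With all libraries the difference was 1.89 ± 0.55 and did not pass (edgeR adjusted p = 0.460). The deeper call did not hold without static array replicate 1 (edgeR adjusted p = 0.0659), 2 (0.0634) or 4 (0.116), or without control replicate 2 (0.0521). In high intensity versus control the deeper difference was 1.43 ± 0.47 (edgeR adjusted p = 0.129), and in low intensity versus control 0.95 ± 0.46 (edgeR adjusted p = 0.322). Actuated and static array differed by −0.71 ± 0.48 (edgeR adjusted p = 1.00).

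Several library measures moved with Snord15b between the static array and the controls. In the deeper libraries the protein-coding share of counts was 85.5 to 88.1% on the static array and 73.7 to 78.9% in the controls, the mitochondrial share was 7.30 to 8.04% against 11.7 to 17.5%, and total counts were 7724923 to 13162635 against 2273487 to 3771637. Astrocyte and oligodendrocyte markers (6 of 6 genes in the table, none at 0 in a whole group) summed to 2546 to 3434 CPM against 1330 to 1826 CPM, and proliferating progenitor markers (6 of 6, none at 0 in a whole group) to 479 to 632 CPM against 312 to 390 CPM. Their part in the difference was not tested. Scaling to protein-coding counts gave 2.28 in the deeper libraries (edgeR adjusted p = 0.0219).

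The host gene did not show a difference of this size. Rps3 stood at 375 ± 54.3 CPM on the static array (SD, n = 3) and 291 ± 23.1 CPM in the controls (n = 5), a log2 difference of 0.17 ± 0.15 (edgeR adjusted p = 0.697). Snord15b held 17.7 ± 1.94 counts per 100 Rps3 counts on the static array and 3.99 ± 2.70 in the controls. Over the 21 deeper libraries, which differ in depth and treatment, Snord15b and Rps3 CPM had a Spearman rho of 0.63.

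Snord15a, the other snoRNA of Rps3, differed less. Its deeper libraries held 16.0, 11.02 and 15.8 CPM on the static array and 8.48, 12.5, 5.46, 3.52 and 4.19 CPM in the controls, and the ranges overlapped. Its deeper log2 difference was 0.83 ± 0.60 (edgeR adjusted p = 0.615). The ratio of Snord15b to Snord15a counts was 4.24 to 4.98 on the static array and 0.31 to 5.80 in the controls, so it overlapped too. Low intensity medium had the widest ratios, 2.13 to 26, the highest of them from 2 counts of Snord15a.

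Snord21, the box C/D snoRNA in Rpl5, had the smallest p of the genes in low intensity versus control. The low intensity libraries held 1.11, 0, 0, 1.93 and 2.26 CPM in the deeper libraries, from at most 7 counts each. The controls held 5.57, 14.6, 7.51, 0.88 and 5.31 CPM, and the groups overlapped through control 5. The deeper log2 difference was −2.85 ± 0.87 and did not pass (edgeR adjusted p = 0.111), and with all libraries it was −2.67 ± 0.90 (edgeR adjusted p = 0.528). Rpl5 itself differed by 0.04 ± 0.26 (edgeR adjusted p = 0.970).

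Snord22, in the noncoding host Snhg1, held 6.92, 9.19 and 6.73 CPM in the deeper static array libraries and 6.10, 0, 2.39, 0 and 3.91 CPM in the controls. These did not overlap, yet the log2 difference of 1.39 ± 0.79 did not pass (edgeR adjusted p = 0.491). Snord33 also lay higher in the deeper static array libraries, at 1.55 to 3.65 CPM against 0 to 1.06 CPM, from at most 4 counts in a deeper control (edgeR adjusted p = 0.182). The shallow control 4 held 3.43 CPM, inside that static array range. Snord33 was highest in array libraries (up to 9.66 CPM on the actuated array), and these helped it pass the filter. Its gap between static array and control is therefore no independent sign of a difference. In high intensity medium Snord33 held 1.17 to 2.52 CPM in the deeper libraries, again above the deeper controls (edgeR adjusted p = 0.213). Snord17, in Snx5, and Snord99 overlapped between static array and control. Snord99 did not overlap between the deeper high intensity (1.51 to 3.91 CPM) and low intensity libraries (0 to 1.39 CPM), and its log2 difference of 2.33 ± 1.06 did not pass (edgeR adjusted p = 0.615). Snord99 passed the filter only with the deeper libraries, where its highest value was in high intensity medium. It was also chosen after its values were seen, so this gap is no independent sign of a difference. How many of all genes did not overlap in these comparisons was not counted.

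Of the Cajal body class, Scarna13 and Scarna2 had a count in every deeper library. Scarna13 means lay between 15.2 ± 3.70 CPM in low intensity medium (SD, n = 5) and 22.6 ± 10.01 CPM in high intensity medium (n = 4), and Scarna2 means between 12.1 ± 4.57 and 18.6 ± 6.54 CPM in the same groups. All groups overlapped for both genes, and the log2 differences in the deeper libraries ranged from −0.69 to 0.63 for Scarna2. Scarna6, a smaller scaRNA signal in Atg16l1, ranged from 0 to 10.2 CPM over the deeper libraries.

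Scarna10 had the most counts of all 139 genes. The controls held 204, 47.6, 16.7, 56.3 and 66.2 CPM in the deeper libraries and 0 in control 4, where a count of 0 allows up to 2.06 CPM. Low intensity medium held 10.3, 22.6, 17.4, 9.02 and 11.3 CPM in the deeper libraries. Control 1 was the highest of all libraries, well above the next control, and control 3 lay inside the low intensity range, so the groups overlapped.

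High intensity medium held 5.54, 29.9, 58.3 and 7.32 CPM of Scarna10 in the deeper libraries and 139 and 0 CPM in the shallow ones. The actuated array held 20.4, 41.9, 43.0 and 47.8 CPM and the static array 28.5, 63.4 and 36.9 CPM, with 37.5 CPM in its shallow library. Ordered by deeper mean, the groups were control (78.2 ± 72.8, SD, n = 5), static array (42.9 ± 18.2, n = 3), actuated array (38.3 ± 12.2, n = 4), high intensity (25.3 ± 24.6, n = 4) and low intensity (14.1 ± 5.73, n = 5). Neighbouring groups in this order overlapped.

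The fitted log2 difference of Scarna10 in low intensity versus control was −2.60 ± 0.57 (SE) in the deeper libraries and −2.42 ± 0.66 with all libraries. Without control 1 it was −1.86 and −1.66. It was −1.79 ± 0.58 in high intensity versus control, −1.04 ± 0.60 in static array versus control and −0.17 ± 0.60 in actuated versus static array, all in the deeper libraries. The 3 comparisons with control share the same controls, control 1 included.

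**Figure D4:**
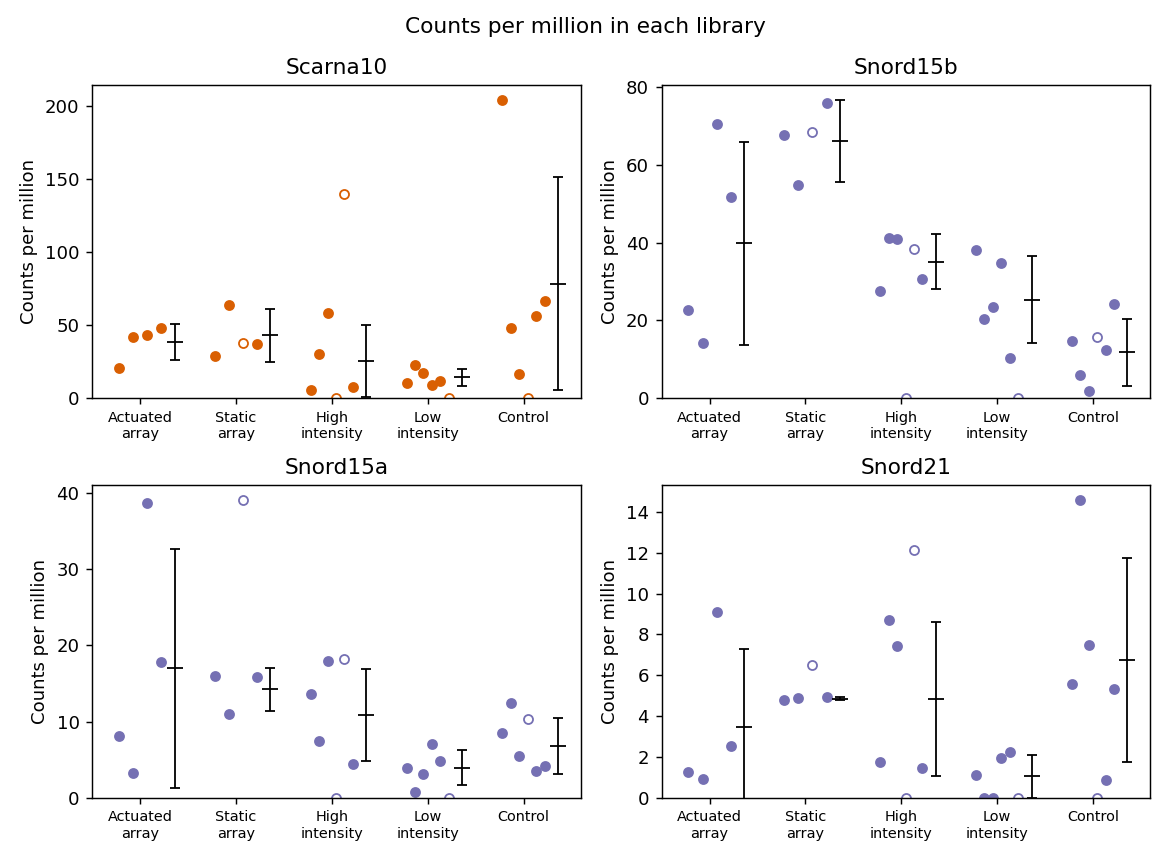
CPM of Scarna10, Snord15b, Snord15a and Snord21 in each library, by group; filled points are deeper libraries, open points shallower ones, and bars give the mean and SD of the deeper libraries. Control 1 stands alone at 204 CPM for Scarna10, and the static array lies above the controls for Snord15b.

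Library measures moved with Scarna10 as well. In the deeper libraries the protein-coding share was 73.7 to 78.9% in the controls and 81.6 to 86.7% in low intensity medium, and proliferating progenitor markers (6 of 6 genes in the table, none at 0 in a whole group) summed to 312 to 390 CPM in the controls and 400 to 1073 CPM in low intensity medium. Their part in the difference was not tested. Scaling to protein-coding counts left the deeper difference at −2.60.

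The host of Scarna10 lay the other way. Ncapd2 stood at 25.3 ± 6.40 CPM in the controls (SD, n = 5) and 41.8 ± 15.3 CPM in low intensity medium (n = 5), a deeper log2 difference of 0.58 ± 0.25 (edgeR adjusted p = 0.252). Scarna10 held 104 to 626 counts per 100 Ncapd2 counts in the controls and 15.5 to 62.4 in low intensity medium. Since Scarna10 was chosen for its lower values in low intensity medium, this gap is no independent sign of a difference. Scarna10 also overlaps an annotated Ncapd2 exon, where reads of the host and of the small RNA cannot be told apart. Over the 21 deeper libraries Scarna10 and Ncapd2 CPM had a Spearman rho of −0.20.

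The genes whose log2 CPM ranked most like Scarna10 over the 21 deeper libraries, of 14729 compared, were Gm24105 (Spearman rho 0.87), Rpph1 (0.85), the RNA of ribonuclease P, and the pseudogene Ywhaq-ps3 (0.74). Of the other snoRNA and scaRNA genes, Scarna6 was nearest (0.70), then Snord17 (0.51) and Snord21 (0.46). Snord15b was at 0.07. All points share library and depth.

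Genes for the proteins that carry, assemble and host these RNAs were tested alongside. Of 4 box C/D core genes (Fbl, Nop56, Nop58 and Snu13), 4 box H/ACA core genes, 12 assembly factors, 11 Cajal body genes, 15 tested noncoding host genes and 14 ribosome biogenesis genes, 0 passed the adjusted threshold in any comparison in edgeR, with all or with the deeper libraries. An unadjusted p under 0.05 was reached in 12 of 300 tests with all libraries and in 35 with the deeper ones. These are 4.0% and 11.7% of the tests, near the 4.86% and 10.4% of all gene tests over the same 5 comparisons. In low intensity versus control the median log2 difference in the deeper libraries was 0.41 for the box C/D core genes and 0.32 for the ribosome biogenesis genes, with 4 of 4 and 12 of 14 positive, beside −0.01 over all tested genes. The smallest adjusted p in edgeR was 0.109 and 0.0612 in these lists. Other lists leaned to one side in other comparisons of the deeper libraries. In static array versus control 3 of 15 noncoding host genes were positive, with a median of −0.43 (smallest edgeR adjusted p = 0.0671). In high versus low intensity 0 of 12 assembly factors were positive, with a median of −0.23. The share of positive differences over all tested genes was not counted.

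RNAs transcribed on their own gave 2 further values. Rnu11, the U11 small nuclear RNA of the minor spliceosome, stood at 14.7 ± 14.3 CPM in the controls (SD, n = 5) and 3.09 ± 2.81 CPM on the static array (n = 3), and its deeper log2 difference was −2.44 ± 0.73 (edgeR adjusted p = 0.120). Rn7sk, a regulator of transcription elongation, was at 3703 ± 1253 CPM in the controls and 2010 ± 879 CPM in low intensity medium (n = 5), a difference of −1.03 ± 0.26 (edgeR adjusted p = 0.0582). Neither passed the threshold.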

How the data were processed

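RNA was measured in 26 libraries made, per the labels' protocols, from 4 ng total RNA (full volume for the 8 most dilute samples) with ribosomal fragments cleaved by ZapR, and sequenced as paired reads of 50 bases. The authors deposited estimated counts per gene as whole numbers, not scaled for depth, and TPM values. The submitters' processing notes name BWA 0.7.12-r1039, bedtools 2.25.0, STAR and Salmon without a role. How strand and near-identical copies were handled is not given in the sources used here; values of the 5 repeated symbols are uncertain. No molecular identifiers are mentioned, so limits cover counting error only.

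Genes and lists were chosen with earlier results of these data known. Groups came from the labels. The main fit was edgeR 4.0.16 (R 4.3.3), all libraries, 1 coefficient per group, filterByExpr and TMM, with Benjamini-Hochberg adjustment over all genes tested. The deeper libraries, other scalings, filters, DESeq2 1.42.0, limma 3.58.1 on log2(TPM + 1) and log2(TPM + 0.1), a replicate block and leaving out each replicate were alternatives. The fit was tested on simulated data. The common dispersion was 0.251 with all libraries and 0.0923 with the deeper ones. Standard errors of edgeR log2 differences were derived from the difference and the F statistic of its test. Those of Scarna10 come from the same statistic and are not to be read as a test. Named genes were Scarna10, any gene passing the threshold, the 8 of highest mean CPM per class, the 2 of smallest p per comparison, their hosts and the genes most like Scarna10. Snord99 and the second Snord3a row fall outside this rule and were chosen after their values were seen.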

Additional observations from a re-analysis of the deposited data

Results flagged for a closer look

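In each group of 4 or 5 deeper libraries the highest or lowest library was set against the others by its gap over the range. Of 102 such groups 19 stood out, where chance gives about 1 in 20, and the low-count genes in them share libraries and zeros. Control 1 was the highest control for Scarna10 (204 CPM, next 66.2), for Scarna13 (26.2 CPM, next 16.4), for the Cajal body class sum (258 CPM, next 100.01), for Snord33 (1.06 CPM) and for one Scarna3b row (0.53 CPM).

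The other values rest on few counts. Control 3 was highest for one Snord3a row (1.71 CPM), and control 6 for Snora24 (0.56 CPM) and Snora44 (1.40 CPM). Low intensity 1 was highest for Snora7a (0.28 CPM), Snora24 (1.39 CPM) and the Scarna3b row (0.28 CPM), low intensity 2 for Snora21 (0.39 CPM), and low intensity 3 for Snora73a (2.44 CPM) and one Snora16a row (0.70 CPM). High intensity 2 was highest for Snora81 (1.66 CPM), high intensity 3 for the Scarna3b row (0.78 CPM) and high intensity 6 for Scarna17 (0.29 CPM). Actuated array 3 was highest for Scarna3a (0.88 CPM) and actuated array 4 for Scarna9 (0.13 CPM, 1 count).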

How the results depend on the processing

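With all libraries 0 genes beside Scarna10 passed in each comparison, and leaving out any 1 replicate kept the count at 0 in all 5. The count moved to 1 for static array versus control with the deeper libraries, with the deeper libraries scaled to protein-coding counts, and without the low-count filter with all or deeper libraries. Leaving out 1 deeper replicate gave 0 to 1 there. Without the filter, 219 of 40504 genes of any kind passed there with all libraries and 459 of 37248 with the deeper ones. For actuated versus static array the count without the filter was 1 with all and with deeper libraries, a Snord3a row with 119 counts in 1 library. Of all genes, 1137 of 40504 and 40 of 37248 passed. The deeper libraries without the filter gave 1 for high intensity versus control (Snord15b) and 2 for low intensity versus control (Snord15b and Snord21). In those fits 103 snoRNA and scaRNA genes were fitted, Scarna10 among them. Beside these counts, 700 and 660 of 37248 genes of any kind passed. The cause was not tested. Snord15b in high intensity versus control reversed to −0.089 in limma on log2(TPM + 0.1), from 0.87. Replicate numbers did not pair the samples (correlations of same-numbered libraries −0.19 to 0.13), and a fit with the replicate block called 0 genes in each comparison. Of the box H/ACA class 0 genes passed the filter on low counts, so at this depth it had no test, and the cause was not tested.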
